A study of Mus musculus with 2 samples.

Results

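Hjurp-high and Hjurp-low cells are the upper and lower quartiles of LβT2 cells ranked, within each single-cell library, by Hjurp UMIs as a share of the UMIs of all other analysed genes. Of 3881 cells, 3554 had at least 300 UMIs and were ranked. The Hjurp-high class held 444 cells of the vehicle library and 447 of the GnRH library, 891 in all, and the Hjurp-low class held 444 and 446, 890 in all. LβT2 is an immortalised mouse gonadotrope line, which arose from a transgenic mouse tumour in which LHβ promoter sequence drove the SV40 T-antigen, and both cultures were at passage 15. One culture received 2 nM GnRH and the other received vehicle, each for 40 min, and each gave 1 droplet library. There was therefore no replicate of either treatment, cells of a library are not replicates, and no p-value is given. All intervals are 95% intervals and cover counting error alone. The table analysed here held 1068 genes, 3.81% of the gene list, and the 1062 that could be placed all lie on chromosome 1.

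Hjurp, the Holliday junction recognition protein, is the chaperone that carries the histone variant CENP-A to centromeres and so marks where the kinetochore forms in the next division. A dividing cell copies its DNA in S phase, for which the MCM helicase and the origin recognition complex are prepared in G1, and then makes the proteins of chromosome segregation in G2 and M. Genes of replication therefore tend to peak earlier in the cycle than genes of mitosis. Most of the usual cycle markers lie on other chromosomes and were not analysed here, so the comparison rests on the few members of each list that lie on chromosome 1.

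UMIs (unique molecular identifiers, which count captured RNA molecules) numbered 572 and 575 per cell at the median in the ranked cells of the vehicle and GnRH libraries, over the analysed genes alone. Median depth differed between the classes. It was 610 UMIs in Hjurp-high and 495 in Hjurp-low cells of the vehicle library, and 627 and 531 in the GnRH library. Levels are therefore given as CPM, the UMIs of a gene scaled to a fixed total of UMIs of all genes but Hjurp in the same class sum, and shares of cells are given after thinning each cell to 300 UMIs. Markers of other cell types were close to absent: of the 3 fibroblast, endothelial and immune markers analysed, Col3a1 and Col5a2 were at 0 in all 4 class sums, and Cxcr4 had 1 UMI. Of 6 gonadotrope and secretory genes analysed, 5 were detected in both classes and Resp18 was at 0 UMIs in all 4 class sums, while the defining genes Lhb, Cga, Gnrhr and Nr5a1 lie outside the analysed rows. Doublets were not called. Column names carried no barcode sequence, so barcodes shared between the libraries could not be counted.

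Promoters of Hjurp, of 3 genes that were higher in Hjurp-high cells and of 1 replication gene that was not are shown because 3 short elements are known from cell cycle promoters. TTTGAA is the core of the CHR element of late cell cycle genes, TTTGGCGC is an E2F site typical of replication genes, and CCAAT is bound by NF-Y. Each window runs from 250 bases before to 50 bases after a RefSeq start in GRCm38.p6, is written 5′ to 3′ on the gene's strand, and has matches to the 3 elements on either strand in capitals.
Hjurp, chr1:88277530-88277829, minus strand: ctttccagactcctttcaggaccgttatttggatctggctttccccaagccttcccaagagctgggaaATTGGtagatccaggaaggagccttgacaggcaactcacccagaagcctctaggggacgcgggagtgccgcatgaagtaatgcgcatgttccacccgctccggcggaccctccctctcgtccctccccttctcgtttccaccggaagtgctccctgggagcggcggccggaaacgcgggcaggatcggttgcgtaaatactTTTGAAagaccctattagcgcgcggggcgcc
Sgol2a (RefSeq Sgo2a, start 1), chr1:57985090-57985389, plus strand: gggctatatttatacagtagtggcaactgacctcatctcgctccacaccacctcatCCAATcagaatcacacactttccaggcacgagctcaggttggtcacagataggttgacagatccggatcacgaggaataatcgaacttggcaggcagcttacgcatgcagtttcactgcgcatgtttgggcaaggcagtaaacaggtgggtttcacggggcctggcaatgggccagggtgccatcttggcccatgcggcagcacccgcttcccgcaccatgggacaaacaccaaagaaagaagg
Sgol2a (RefSeq Sgo2a, start 2), chr1:57995724-57996023, plus strand: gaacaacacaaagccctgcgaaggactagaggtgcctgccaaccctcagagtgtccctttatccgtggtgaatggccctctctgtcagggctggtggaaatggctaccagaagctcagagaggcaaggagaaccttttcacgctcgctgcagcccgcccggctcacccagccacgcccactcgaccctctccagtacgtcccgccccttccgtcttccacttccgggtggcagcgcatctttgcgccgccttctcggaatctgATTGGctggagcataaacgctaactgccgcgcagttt
Bard1, chr1:71102923-71103222, minus strand: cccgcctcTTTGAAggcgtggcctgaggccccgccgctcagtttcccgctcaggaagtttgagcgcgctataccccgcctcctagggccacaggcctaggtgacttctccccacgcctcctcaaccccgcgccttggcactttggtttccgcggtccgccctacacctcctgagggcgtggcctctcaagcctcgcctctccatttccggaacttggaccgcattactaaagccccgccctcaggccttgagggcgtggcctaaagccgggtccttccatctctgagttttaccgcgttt
Ube2t, chr1:134962315-134962614, plus strand: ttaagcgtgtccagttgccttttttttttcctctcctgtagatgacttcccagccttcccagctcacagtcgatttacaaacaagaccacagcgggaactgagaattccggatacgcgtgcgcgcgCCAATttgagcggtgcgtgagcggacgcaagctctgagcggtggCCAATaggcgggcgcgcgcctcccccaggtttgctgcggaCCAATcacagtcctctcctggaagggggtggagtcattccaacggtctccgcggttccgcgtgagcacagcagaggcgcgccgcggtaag
Mcm6, chr1:128359656-128359955, minus strand: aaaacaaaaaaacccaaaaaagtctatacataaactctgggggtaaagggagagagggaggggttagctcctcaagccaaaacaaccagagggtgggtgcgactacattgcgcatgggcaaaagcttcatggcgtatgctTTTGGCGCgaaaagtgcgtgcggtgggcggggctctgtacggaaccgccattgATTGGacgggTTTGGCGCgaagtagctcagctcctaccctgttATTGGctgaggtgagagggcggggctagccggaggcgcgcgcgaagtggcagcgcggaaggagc
The Hjurp window held TTTGAA and CCAAT once each, Bard1 held TTTGAA, and Ube2t held CCAAT 3 times. The Mcm6 window held TTTGGCGC and CCAAT, each 2 times. Of the 19 promoters matched to 17 of the 24 genes higher in Hjurp-high cells, 4 held TTTGAA, 8 held CCAAT and 0 held TTTGGCGC. Among all 32851 promoters of the table these elements were in 17.9%, 37.4% and 0.514%, respectively, and among the 388 promoters matched to the genes tested in 14.7%, 35.8% and 1.80%. These are letter matches in a fixed window and not binding sites.

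Hjurp itself (ENSMUSG00000044783; chromosome 1, 88262471 to 88277633, minus strand, GRCm38) set the classes, so its levels are a description. Hjurp-high cells held a median of 8 Hjurp UMIs in the vehicle library (3 to 23) and 7 in the GnRH library (3 to 20). Hjurp-low cells held a median of 1 (0 to 2) and 0 (0 to 3). The last cells inside the high class had a Hjurp share of 0.910% and 0.800%, and the first outside had 0.909% and 0.798%. For the low class the last cells inside were at 0.258% and 0.215%, and the first outside at 0.259% and 0.216%. The share had no gap at either boundary: 164 and 167 cells lay within 10% of the upper boundary, and 87 and 118 within 10% of the lower one. Hjurp spread more widely than counting alone would give. No Hjurp UMI was found in 10.9% of ranked vehicle cells (9.53 to 12.5%) where a Poisson draw at each cell's depth gives 3.21%, and in 13.1% of GnRH cells (11.6 to 14.7%) where it gives 4.77%. Its Fano factor (variance over mean) was 2.81 and 2.79, against 1.44 and 1.39 expected from depth alone.

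**Figure D1:**
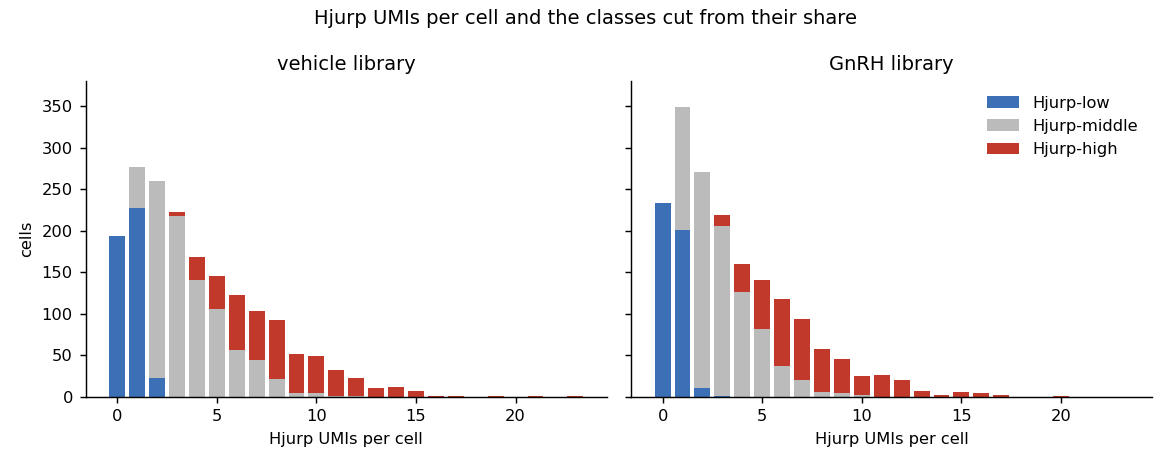
Cells (y axis) by Hjurp UMIs per cell (x axis) in the vehicle and GnRH libraries, coloured by class. The classes overlap in UMIs because they were cut on the share of a cell's UMIs, and the distribution has no gap between them.

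To obtain a Hjurp value that the ranking had not used, the UMIs of each cell were split at random into a pair of sets, classes were cut on one set and levels were read from the other. Hjurp was then 9874 CPM in Hjurp-high and 3749.9 CPM in Hjurp-low vehicle cells, a 2.63-fold difference (log2 ratio 1.40, 1.24 to 1.56). In the GnRH library it was 8115 and 3513 CPM, 2.31-fold (1.21, 1.05 to 1.36). The ranking thus kept a difference in Hjurp between the cells, and it was smaller than the difference in the UMIs used for ranking. Over all ranked cells Hjurp was lower in the GnRH library, at 5717 against 6630.0 CPM of the other UMIs, with a log2 ratio of -0.21 (-0.26 to -0.16).

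Across the other genes, Hjurp-high cells carried more RNA of the centromere gene Sgol2a, the genome maintenance genes Bard1, Ube2t and Terf1 and the chromatin gene Nucks1, and less of a small group that included the secreted growth factor binding protein Igfbp5. Of 376 genes with at least 100 UMIs over the class sums, 24 (6.38%) were at least 1.5-fold higher in Hjurp-high cells in both libraries and 5 (1.33%) were at least 1.5-fold lower in both. In the vehicle library alone 40 (10.6%) were higher and 11 (2.93%) lower, and in the GnRH library alone 32 (8.51%) were higher and 10 (2.66%) lower. The median log2 ratio of all 376 genes was 0.06 with vehicle and 0.04 with GnRH, and 279 genes (74.2%) had the same sign in both. A call here is one of size. The other genes form the denominator of the Hjurp share, so they are not fully independent of the ranking. With classes from one set of UMIs and levels from the other, 13 of the 24 higher genes and 1 of the 5 lower genes were called again, and a further 3 and 2 kept the fold but were under the minimum of 100 UMIs. With the same classes and values thinned to 300 UMIs, 22 genes were higher and 4 lower, and 22 of the 29 calls were shared.

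**Figure D2:**
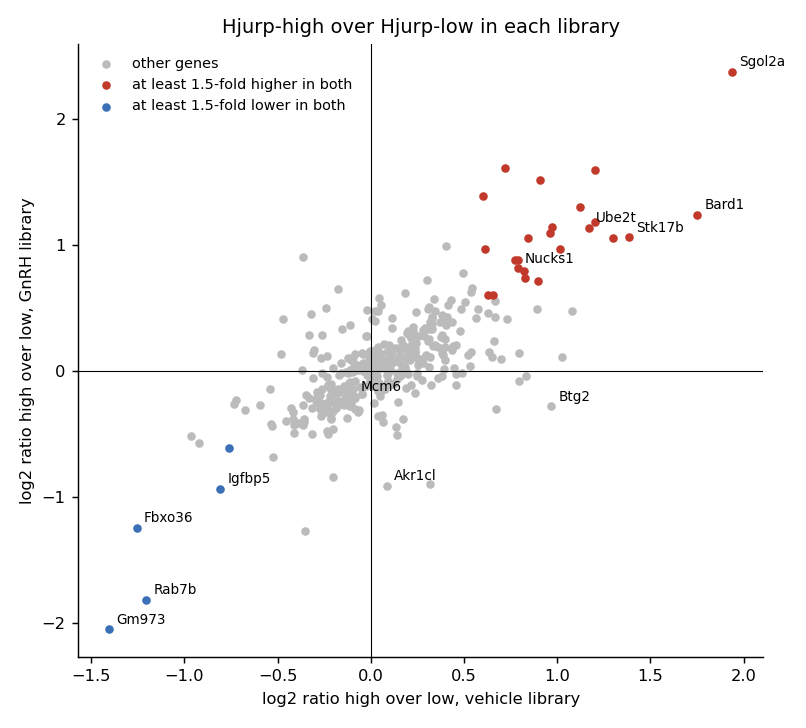
Log2 ratio of Hjurp-high over Hjurp-low in the vehicle library (x axis) and the GnRH library (y axis), one point per gene with at least 100 UMIs. The 24 genes in red were at least 1.5-fold higher and the 5 in blue at least 1.5-fold lower in both, and Sgol2a lies farthest to the upper right while Btg2 and Akr1cl lie off the diagonal.

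The mitosis list had 3 measured members besides Hjurp. Sgol2a, a shugoshin that protects cohesin at centromeres (chromosome 1, 57995971 to 58025899, plus strand), was at 1182 CPM in Hjurp-high and 308 CPM in Hjurp-low cells of the vehicle library, and 1132 and 219 CPM in the GnRH library. Its log2 ratios of 1.94 (1.57 to 2.32) and 2.37 (1.96 to 2.81) were the largest of the 376 genes in each library. Sgol2a overlaps Kctd18 on the opposite strand in the annotation, and the part of Kctd18 reads in the Sgol2a counts was not tested. After thinning, 25.2% of Hjurp-high and 7.88% of Hjurp-low vehicle cells had a Sgol2a UMI, and 27.3% and 5.61% of GnRH-treated cells. Most Hjurp-high cells thus had no Sgol2a UMI at this depth. The line offers no cell type that should lack Sgol2a, so a background share from free RNA could not be read and its part was not tested. With classes and levels from separate UMIs the ratios were 1.41 and 2.29. Clasp1, which binds growing microtubule ends at kinetochores, was higher by less than the threshold, with log2 ratios of 0.48 (0.25 to 0.71) and 0.32 (0.11 to 0.54). Cspp1, a centrosome and spindle pole protein, had ratios of 0.16 (-0.03 to 0.36) and 0.18 (-0.01 to 0.38), and both intervals included 0. Thus 1 of 3 members was called higher and 0 lower, beside 6.38% and 1.33% of all genes, and the list's medians were 0.48 and 0.32 against 0.06 and 0.04 over all genes.

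Of the 5 measured members of the replication list 0 were called in either direction, beside 6.38% of all genes called higher and 1.33% lower, so this count is near the background. The list's medians were 0.19 with vehicle and 0.40 with GnRH, against 0.06 and 0.04 over all genes. Dtymk, the thymidylate kinase that makes dTDP for DNA synthesis, was at 8679.7 CPM in Hjurp-high and 5987 CPM in Hjurp-low cells of the vehicle library, and 8229 and 5342 CPM in the GnRH library. Its log2 ratios were 0.54 (0.44 to 0.63) and 0.62 (0.53 to 0.72), under the 1.5-fold threshold in the vehicle library. Prim2, the large subunit of primase, had ratios of 0.73 (0.48 to 0.99) and 0.41 (0.18 to 0.65), past the threshold in the vehicle library alone. Orc2, of the origin recognition complex, had 0.02 (-0.21 to 0.25) and 0.40 (0.16 to 0.64). Mcm6, a subunit of the MCM helicase, was at 3653 CPM in Hjurp-high and 3896 CPM in Hjurp-low cells of the vehicle library, and 3698 and 4241 CPM in the GnRH library, with ratios of -0.09 (-0.22 to 0.04) and -0.20 (-0.32 to -0.07). Mcm3 was at 3924 CPM in Hjurp-high and 3446 CPM in Hjurp-low cells of the vehicle library, and 4034 and 4436 CPM in the GnRH library, with ratios of 0.19 (0.06 to 0.32) and -0.14 (-0.26 to -0.02). The MCM genes thus differed by far less than 1.5-fold between the classes, and Mcm3 lay on opposite sides of 0 in the libraries. With classes and levels from separate UMIs Mcm3 was at 0.10 and -0.06 and Mcm6 at 0.02 and -0.07. Over all 14 settings that give the ratio, Mcm6 ran from -0.31 to 0.23 with vehicle and from -0.43 to 0.07 with GnRH, so no direction was stable. After thinning, 61.5% and 58.6% of Hjurp-high and Hjurp-low vehicle cells had a Mcm6 UMI, with overlapping intervals.

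Among genome maintenance genes, Bard1, Ube2t and Terf1 were called higher. These were 3 of 9 members with at least 100 UMIs, beside 6.38% of all genes, and 0 were lower. The medians were 0.58 and 0.34, against 0.06 and 0.04 over all genes. All 9 ratios were above 0 in both libraries. Of all 376 genes, 222 were above 0 with vehicle and 209 with GnRH, each library counted alone. With classes and levels from separate UMIs, however, Smarcal1 was at -0.11 and -0.13 and Usp37 at -0.18 with vehicle. Bard1, the partner of Brca1 in a ubiquitin ligase of homologous recombination (chromosome 1, 71027498 to 71103146, minus strand), was at 828 CPM in Hjurp-high and 246 CPM in Hjurp-low cells of the vehicle library, and 778 and 329.9 CPM in the GnRH library. Its log2 ratios were 1.75 (1.33 to 2.19) and 1.24 (0.87 to 1.62). Ube2t, the ubiquitin-conjugating enzyme of the Fanconi anaemia pathway (chromosome 1, 134962565 to 134974162, plus strand), was at 3299 CPM in Hjurp-high and 1467 CPM in Hjurp-low cells of the vehicle library, and 3161 and 1439 CPM in the GnRH library, with ratios of 1.17 (0.99 to 1.35) and 1.14 (0.96 to 1.31). With separate UMIs the ratios of Bard1 were 1.26 and 0.97, those of Ube2t 0.85 and 0.92 and those of Terf1 0.93 and 0.73. Ube2t was found in 59.7% of Hjurp-high against 31.1% of Hjurp-low vehicle cells after thinning, and in 57.7% against 31.8% of GnRH-treated cells. Terf1, the telomere repeat binding protein TRF1 (chromosome 1, 15805646 to 15844052, plus strand), had ratios of 0.97 (0.70 to 1.254) and 1.14 (0.84 to 1.44). Zranb3, an enzyme that remodels stalled replication forks, was close to the threshold at 0.58 (0.24 to 0.92) and 0.49 (0.15 to 0.84). The translesion polymerase Rev1 was at 0.25 and 0.28, and the deubiquitinase Usp37 at 0.11 and 0.34. The mismatch repair gene Pms1 was at 0.65 and 0.11, the Ku80 gene Xrcc5 at 0.32 and 0.12 and the annealing helicase gene Smarcal1 at 0.02 and 0.17. Nabp1, a single-stranded DNA binding protein, had 76 UMIs in all and was under the minimum.

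**Figure D3:**
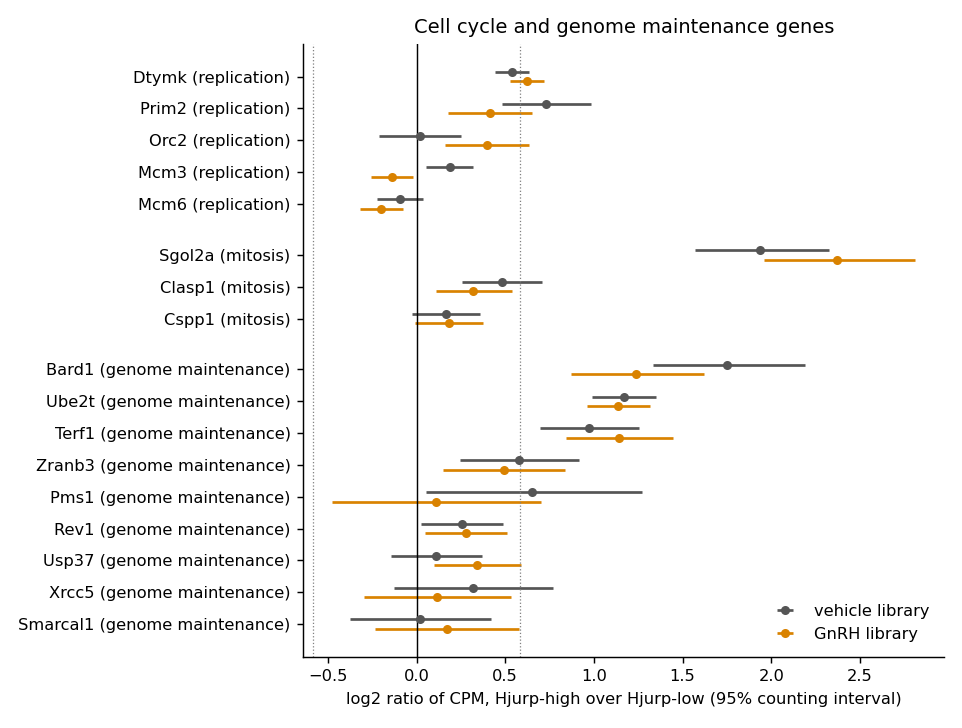
Log2 ratio of CPM, Hjurp-high over Hjurp-low (x axis), for the members of the replication, mitosis and genome maintenance lists with at least 100 UMIs, with 95% counting intervals. Dotted lines mark 1.5-fold. Sgol2a, Bard1, Ube2t and Terf1 lie past the upper line in both libraries, and Mcm3 and Mcm6 lie near 0.

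Of 2 genes for chromatin proteins that are abundant in cycling cells, 1 was called higher and 0 lower, beside 6.38% and 1.33% of all genes. Their medians were 0.58 and 0.63, against 0.06 and 0.04 over all genes. Nucks1, a nuclear DNA-binding phosphoprotein, was at 13782 CPM in Hjurp-high and 7983 CPM in Hjurp-low cells of the vehicle library, and 12616 and 7174 CPM in the GnRH library, with log2 ratios of 0.79 (0.71 to 0.87) and 0.81 (0.73 to 0.90). With separate UMIs they were 0.54 and 0.74, so the call was lost in the vehicle library. Ptma, prothymosin alpha, one of the most abundant transcripts analysed, was at 79129 CPM in Hjurp-high and 60772 CPM in Hjurp-low cells of the vehicle library, and 82684 and 60778 CPM in the GnRH library. Its ratios of 0.38 (0.35 to 0.41) and 0.44 (0.41 to 0.47) were below the threshold with narrow intervals.

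Genes outside these lists made up most of the 24. Mybl1, the transcription factor A-Myb, was at 806 CPM in Hjurp-high and 350.0 CPM in Hjurp-low cells of the vehicle library, and 676 and 298 CPM in the GnRH library, with ratios of 1.20 (0.83 to 1.58) and 1.18 (0.79 to 1.59). Stk17b, a kinase of the death-associated protein kinase family, was at 806 CPM in Hjurp-high and 308 CPM in Hjurp-low cells of the vehicle library, and 679.8 and 326 CPM in the GnRH library, with 1.39 (1.00 to 1.79) and 1.06 (0.68 to 1.45). With separate UMIs its ratios were 1.51 and 0.52, and the call was lost in the GnRH library. The PAS domain kinase gene Pask was at 517 CPM in Hjurp-high and 237 CPM in Hjurp-low cells of the vehicle library, and 568 and 231 CPM in the GnRH library, 2.18-fold and 2.46-fold higher, but it overlaps Ppp1r7 on the opposite strand. The uncharacterised genes 2810459M11Rik and 1700066M21Rik had ratios of 0.91 and 1.51, and of 1.297 and 1.06. With separate UMIs 2810459M11Rik was at 0.59 and 0.87. With values thinned in the same classes it was at 0.50 and 1.39, under the threshold with vehicle. Mgat4a, a glycosyltransferase gene with 122 UMIs, had 0.72 (-0.10 to 1.58) and 1.61 (0.73 to 2.58), and its vehicle interval included 0. With cells thinned before ranking its vehicle ratio turned to -0.18. A further 12 were chosen by their calls: Ogfrl1, Bok, Utp14b, Slc40a1, Raph1, Hecw2, Cnnm4, Sox13, Pgap1, Gpc1, Ccnyl1 and Agap1. Among them the iron exporter gene Slc40a1 had ratios of 0.84 and 1.06 and the cell surface proteoglycan gene Gpc1 0.82 and 0.74. With separate UMIs Slc40a1 kept its call, while those of Gpc1, Hecw2, Cnnm4, Sox13, Pgap1 and Ccnyl1 were lost. Utp14b had 1.01 and 0.97 and shares its strand with Acsl3, whose reads could not be told from its own by position alone. Bok, a Bcl2 family gene, had 110 UMIs in all and a vehicle interval that included 0. Bok was the 1 called gene of the 6 antiproliferative and p53-linked genes, beside 6.38% of all genes called higher, and the medians of the 6 were 0.52 and 0.41 against 0.06 and 0.04 over all genes. Mdm4, an inhibitor of p53 on that list, was not called at 0.66 (0.45 to 0.88) and 0.56 (0.34 to 0.78), nor was the antiapoptotic gene Bcl2 at 0.44 and 0.20.

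The 5 genes lower in Hjurp-high cells were of different kinds. Igfbp5, a secreted binding protein for insulin-like growth factors, was the most abundant, at 10132 CPM in Hjurp-high and 17737 CPM in Hjurp-low cells of the vehicle library, and 8212 and 15672 CPM in the GnRH library. Its log2 ratios were -0.81 (-0.88 to -0.74) and -0.93 (-1.01 to -0.86), and with separate UMIs they were -0.57 and -0.83, the first just short of the threshold. Its neighbour Igfbp2, of the same family, was at 27452 CPM in Hjurp-high and 39752 CPM in Hjurp-low cells of the vehicle library, and 28503 and 38060.1 CPM in the GnRH library, with ratios of -0.53 (-0.58 to -0.49) and -0.42 (-0.46 to -0.37), under the threshold. Fbxo36, an F-box gene that overlaps Trip12 on the opposite strand, was at 412 CPM in Hjurp-high and 983 CPM in Hjurp-low cells of the vehicle library, and 421 and 998 CPM in the GnRH library, with -1.26 (-1.59 to -0.93) and -1.24 (-1.57 to -0.93). Rab7b, a small GTPase of endosomal traffic, had -1.21 (-2.08 to -0.38) and -1.81 (-2.94 to -0.79) at 101 UMIs in all. Gm973, which overlaps antisense transcripts on the opposite strand, had -1.40 (-2.16 to -0.69) and -2.04 (-2.86 to -1.29), and the membrane protein gene Tmem37 had -0.76 (-1.12 to -0.41) and -0.61 (-0.98 to -0.24). With separate UMIs Tmem37 was at -0.54 and -0.76, under the threshold with vehicle. Of the genes with the 10 lowest mean ratios that were not called, 3110009E18Rik was at -0.92 and -0.57 and Gm7160 at -0.96 and -0.52. Ly96, a coreceptor of innate immunity, was at -0.35 and -1.27 and 4732440D04Rik at -0.21 and -0.84. The chaperone genes Hspd1, Hspe1 and Bag2 were all below 0 in both libraries. Of all 376 genes, 154 were below 0 with vehicle and 167 with GnRH, each library counted alone. Of the 3, 0 were called, beside 1.33% of all genes called lower. Hspd1, the mitochondrial Hsp60, was at -0.21 (-0.33 to -0.09) and -0.38 (-0.50 to -0.27) and its partner Hspe1 at -0.23 (-0.31 to -0.16) and -0.28 (-0.36 to -0.20). Those neighbours overlap on opposite strands.

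Of the 5 gonadotrope genes detected 0 were called, where 6.38% of all genes were called higher and 1.33% lower, so a count of 0 among 5 is near the background. Of the 5, 3 were above 0 in both libraries and 1 below. The inhibin subunit genes Inha and Inhbb had ratios of 0.33 and 0.42, and of 0.19 and 0.09. Scg2, a secretory granule protein, was the one below 0, at -0.29 (-0.32 to -0.26) and -0.24 (-0.27 to -0.21). Ecel1 was at 0.16 and -0.04 and Ptprn at 0.15 and 0.07. Of 3 ribosomal protein and 6 ribosome biogenesis genes 0 were called, which is near the same background. The medians of the 6 ribosome biogenesis genes were -0.22 and -0.0024, against 0.06 and 0.04 over all genes. Of those 6, 2 were above 0 in both libraries and 3 below. Rpl37a and Rpl31 were within 0.2 of 0 on the log2 scale in both libraries, and Rpl7 was at -0.21 and -0.18. Of the other variable genes, Cntnap5a was at 0.20 and 0.15 and Fn1 at -0.07 and 0.01.

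The lists of phase genes used by the study had 4 or 5 members each with at least 100 UMIs, and are read beside the 6.38% of all genes called higher and the medians of 0.06 and 0.04 over all genes. Of 5 G2/M genes 3 were called higher, with medians of 0.79 and 0.81. Those 3 were Nucks1, Stk17b and 1700066M21Rik, while the apoptosis regulator Cflar was at 0.32 and 0.39. With classes and levels from separate UMIs the calls of Nucks1 and Stk17b were lost and that of 1700066M21Rik was kept. Of 4 G1/S genes 1 was called, Bard1, with medians of 0.49 and 0.16. Of 4 S genes 1 was called, Ube2t, with medians of 0.26 and 0.06. Of 5 M genes 1 was called, Sgol2a, with medians of 0.04 and 0.06, and of 4 M/G1 genes 1 was called, Nucks1, with medians of 0.18 and 0.17.

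Levels were also read over all 4 quartile groups of the Hjurp share, from lowest to highest. Of all 376 genes, 31 (8.24%) were higher at each step in both libraries and 24 (6.38%) were lower at each step in both. Of 72 named genes with at least 100 UMIs, 14 were higher and 8 lower at each step in both, but some of these genes were named for their difference between the highest and the lowest of these same groups, so nothing is read from their share. Sgol2a was at 308, 492, 720.3 and 1182 CPM in the vehicle library and 219, 369, 631 and 1132 CPM in the GnRH library. Ube2t was at 1467, 1927, 2686 and 3299 CPM, and at 1439, 1784, 2377 and 3161 CPM under GnRH. Dtymk, Prim2, Terf1, Bard1, Mybl1, Stk17b, Zranb3, Nucks1, Ptma, 2810459M11Rik and Rpl37a were ordered the same way, although the ratios of Rpl37a were only 0.05 and 0.14. Igfbp5, Igfbp2, Fbxo36, Gm973, Rab7b, Scg2, Hspe1 and Rpl7 were lower at each step.

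The MCM genes were highest in the middle groups. Mcm6 was at 3896, 4718, 4376 and 3653 CPM in the vehicle library and 4241, 4591, 4420.3 and 3698 CPM in the GnRH library, so the second group was highest in both and the Hjurp-high group lowest in both. Mcm3 was at 3446, 4845, 4706 and 3924 CPM and 4436, 4556, 4862 and 4034 CPM. In the vehicle library the interval of the second group (4462 to 4985 CPM for Mcm6) did not overlap that of the highest (3432 to 3886 CPM). Median depth also differed between the groups, at 495, 569, 631.5 and 610 UMIs in the vehicle and 531, 528, 613 and 627 in the GnRH library.

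**Figure D4:**
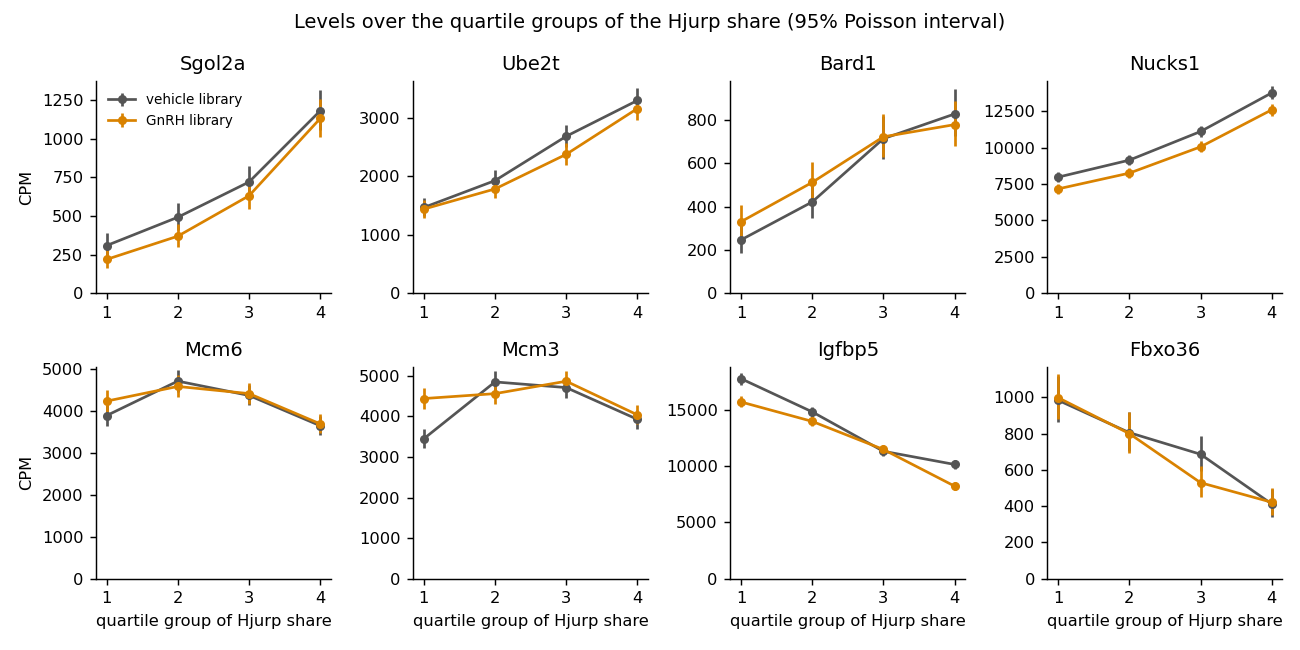
CPM of 8 genes (y axes, from 0) over the 4 quartile groups of the Hjurp share (x axis, lowest to highest) in each library, with 95% Poisson intervals. Sgol2a, Ube2t, Bard1 and Nucks1 climb at each step, Igfbp5 and Fbxo36 fall, and Mcm6 and Mcm3 are highest in the inner groups.

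The GnRH response was then read inside each class, with the ratio of the GnRH to the vehicle library. Both libraries enter every such ratio, so treatment and library cannot be told apart. Over all ranked cells 5 genes were at least 2-fold higher with GnRH: Btg2, Neurl3, Coq10b, Fhl2 and Ptprn. Of the 376 genes, 5 (1.33%) were at least 2-fold higher within Hjurp-high cells and 4 (1.06%) within Hjurp-low cells, and 1 (0.266%) was at least 2-fold lower in each class. The 4 of the Hjurp-low class were Btg2, Coq10b, Fhl2 and Ptprn, and the fifth of the Hjurp-high class was Bok, with 110 UMIs in all. The lower genes were Lipt1 in Hjurp-high, at -1.05, and Arhgef4 in Hjurp-low cells, at -1.24. The median log2 ratio of all genes was -0.11 in Hjurp-high and -0.08 in Hjurp-low cells.

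Btg2, an antiproliferative early response gene, was induced in both classes but from unequal basal levels. In vehicle cells it was at 1344 CPM in Hjurp-high and 687 CPM in Hjurp-low cells, a log2 ratio of 0.97 (0.70 to 1.24). In GnRH-treated cells the order was the opposite, at 27711 and 33628 CPM, a ratio of -0.28 (-0.32 to -0.24). GnRH over vehicle was 4.37 (4.22 to 4.52) in Hjurp-high cells, 20.6-fold, and 5.61 (5.39 to 5.84) in Hjurp-low cells, 48.9-fold. The log2 ratios differed by -1.247 (-1.51 to -0.98). After thinning, 27.5% of Hjurp-high and 16.9% of Hjurp-low vehicle cells had a Btg2 UMI, and 94.4% and 95.3% of GnRH-treated cells did. The shares after GnRH were close in both classes, but no background share could be read, and the part of free RNA in them was not tested. Over the quartile groups Btg2 was at 687, 708, 960.4 and 1344 CPM in the vehicle library, higher at each step, and at 33628, 29615, 30535 and 27711 CPM in the GnRH library. With at least 1 Hjurp UMI against none in place of quartiles, the difference of the log2 ratios was -0.39, and Btg2 varied between cells by more than counting error, so its counting intervals understate the error of a difference between classes of cells.

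Coq10b, Fhl2 and Ptprn, also induced, are given in the same way. Coq10b, which encodes a coenzyme Q binding protein of mitochondria, was at 509.5 CPM in Hjurp-high and 658 CPM in Hjurp-low cells of the vehicle library, and 2988 and 2969 CPM in the GnRH library. GnRH over vehicle was 2.55 (2.29 to 2.82) in Hjurp-high and 2.17 (1.92 to 2.43) in Hjurp-low cells, a difference of 0.38 (0.02 to 0.74) in the other direction. The Hjurp-high over Hjurp-low ratios of Coq10b were -0.37 with vehicle and 0.01 with GnRH. With separate UMIs they were closer together, at -0.19 and -0.03. Fhl2, a LIM domain coregulator, was at 145 CPM in Hjurp-high and 208 CPM in Hjurp-low cells of the vehicle library, and 499.6 and 803 CPM in the GnRH library, with responses of 1.79 (1.28 to 2.33) and 1.95 (1.49 to 2.42). Ptprn, a protein of secretory granule membranes, had responses of 1.23 (1.00 to 1.45) and 1.32 (1.07 to 1.57). The differences were -0.16 (-0.83 to 0.52) for Fhl2 and -0.09 (-0.42 to 0.24) for Ptprn. Neurl3, a ubiquitin ligase gene, had 2 UMIs in Hjurp-high and 0 in Hjurp-low vehicle cells, and 38 and 15 UMIs after GnRH. In Hjurp-low cells a floor of 3 UMIs stood in for the vehicle count of 0. The level of Neurl3 after GnRH in those cells was at least 4.77-fold that vehicle floor. This is a lower bound, so its responses in the classes could not be compared. In Hjurp-high cells the ratio was 4.16 (2.21 to 7.26) on the log2 scale, 17.9-fold, on those 2 vehicle UMIs. Bag2 and Ppp1r15b, early genes below the 2-fold threshold, had differences of -0.12 and -0.09 with intervals that included 0.

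**Figure D5:**
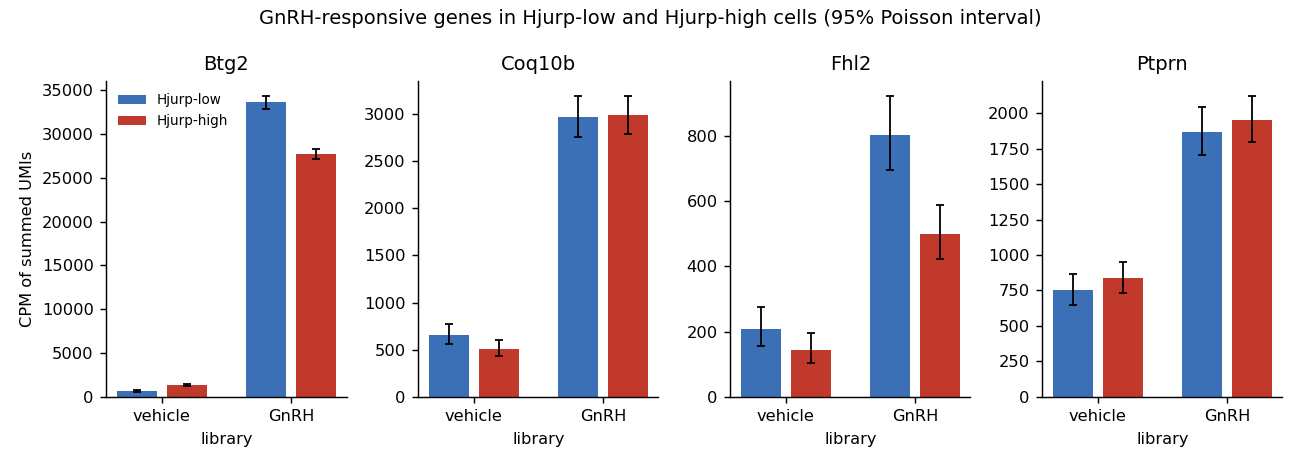
CPM of summed UMIs (y axes, from 0, one scale per gene) of Btg2, Coq10b, Fhl2 and Ptprn in Hjurp-low and Hjurp-high cells of the vehicle and GnRH libraries, with 95% Poisson intervals. Btg2 is higher in Hjurp-high vehicle cells and lower in Hjurp-high GnRH-treated cells, and Coq10b reaches the same level in both classes.

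The responses of the other genes were compared between the classes in the same way. Of the 376 genes, 34 (9.04%) had an interval for the difference of responses that excluded 0, 13 with the larger response in Hjurp-high cells. Intervals at 95% would miss 0 for about 18.8 genes by counting error alone, and cells varied by more than counting error, so no set of genes is read from this count. Akr1cl, an aldo-keto reductase family gene, was at 773 CPM in Hjurp-high and 729 CPM in Hjurp-low cells of the vehicle library, and 394 and 739 CPM in the GnRH library. Its level in GnRH-treated Hjurp-high cells stood below the other 3, and the difference of responses was -0.99 (-1.43 to -0.55). Its log2 ratio of Hjurp-high over Hjurp-low in the GnRH library was -0.91, and it was -0.62 with classes and levels from separate UMIs, -0.25 with at least 1 Hjurp UMI against none and -1.38 with values thinned in the same classes. Its highest count in 1 cell was 21 UMIs, in a GnRH-treated Hjurp-low cell. Npas2, a clock-related transcription factor gene chosen after its values were seen, went the other way, with a difference of 1.27 (0.60 to 1.93) at 314 UMIs in all.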

How the data were processed

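Droplet single-cell RNA was measured in 1 vehicle and 1 GnRH library of LβT2 cells. The authors aligned reads to mm10 with Cell Ranger 1.3 and deposited raw UMI counts per gene and cell. The table used here held 1068 complete gene rows, and 1 incomplete row was left out. Hjurp share was Hjurp UMIs over those of all other genes, ranked within each library among cells with at least 300 UMIs, with ties kept. UMIs were summed by gene, class and library and scaled to CPM without Hjurp. Ratios carry exact conditional binomial intervals, levels exact Poisson intervals, shares Clopper-Pearson intervals and differences of log2 ratios Wald intervals, all at 95%. Genes with at least 100 UMIs over the 4 class sums were called by size, at 1.5-fold in both libraries, or at 2-fold for the GnRH response. Named genes were Hjurp, members of the replication, mitosis and genome maintenance lists with at least 20 UMIs, the 10 genes with the largest mean ratio in each direction, genes that responded to GnRH, the variable genes, and the 4 members of each other list with most UMIs. The members and lists were chosen with earlier results of these data known. Values of a few named genes are not reported here. No test was run, since each treatment had 1 library. Gene positions and overlaps come from GENCODE M21 and promoters from RefSeq, both on GRCm38. The alternatives were thinning, other classes, other cell and gene minimums, other folds and scaling by TMM (edgeR 4.0.16), median of ratios or mean CPM per cell. Scripts ran in Python 3.11.15 and R 4.3.3 and were tested on simulated data.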

Additional observations from a re-analysis of the deposited data

Results flagged for a closer look

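Btg2 and Mcm3 had Hjurp-high over Hjurp-low ratios on opposite sides of 0 in the vehicle and GnRH libraries, each with a counting interval that excluded 0. For Btg2 the log2 ratio was 0.97 with vehicle and -0.28 with GnRH, and the GnRH minus vehicle difference was -1.247. For Mcm3 it was 0.19 and -0.14, and the difference was -0.32 (-0.50 to -0.15). The Mcm3 ratio with GnRH turned to 0.09 with thinning before the classes and to 0.18 with at least 1 Hjurp UMI against none, while that with vehicle stayed above 0, from 0.03 to 0.53. The differences were not tested, since each treatment had 1 library.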

How the results depend on the processing

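No paired analysis was possible because a single library stood for each treatment and nothing was tested. A pair of alternatives was chosen after seeing the data: main classes with values thinned to 300 UMIs, and totals without the 10 genes with most UMIs.

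Counts of genes called higher moved from 24 to 12 with thinning before the classes, 14 with at least 1 Hjurp UMI against none, 56 with a minimum of 1 UMI per gene, 52 at a threshold lower than 1.5-fold and 8 at 2-fold. Counts called lower moved from 5 to 1 with classes and values from separate UMIs, 1 with at least 1 Hjurp UMI against none, 11 and 31 with minimums of 20 and 1 UMIs per gene, 20 at that lower threshold and 3 at 2-fold. Minimums and folds change how many genes can pass by construction. So did the separate UMIs in part: Gm973 and Rab7b kept their fold but had 73 and 70 UMIs there, under the minimum of 100, while Igfbp5 and Tmem37 fell short of the fold. The cause of the others was not tested. The replication median of the vehicle library moved from 0.19 to 0.44 with at least 1 Hjurp UMI against none and to 0.088 with thinning before the classes, the highest and lowest of its values, and that of the GnRH library ran from 0.22 with thinning before the classes to 0.44 without the 5% of cells with most UMIs. The mitosis medians ran from 0.29 to 0.66 with vehicle and from 0.22 to 0.49 with GnRH. With at least 1 Hjurp UMI against none they were 0.29 and 0.22, below the replication medians of 0.44 and 0.40. In the GnRH library the mitosis median was below the replication median in the main setting too, at 0.32 against 0.40. The Btg2 response in Hjurp-high cells moved from 4.37 to 4.55 with thinning before the classes, 4.98 with at least 1 Hjurp UMI against none and 4.60 with the 10% of cells of highest share against the bottom quartile. In Hjurp-low cells it moved from 5.61 to 5.37 with at least 1 Hjurp UMI against none. The difference moved from -1.247 to -0.87 with thinning before the classes and -0.39 with at least 1 Hjurp UMI against none, and was below 0 under each of the alternatives. The share of cells without Hjurp moved to 22.6% and 27.0% after thinning, which lowers depth. Mgat4a in the vehicle library reversed to -0.18 with thinning before the classes.

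Of 2024 other log2 ratios under the alternatives, 1833 stayed within their counting intervals and 190 left them. The remaining 1, that of Mgat4a, was a called ratio that changed sign. Of all 2024, called or not, 115 changed sign, among them Mcm3 with GnRH under 2 alternatives. TMM and median of ratios shifted the median of all genes by at most 0.07. Shallow depth, few list members on chromosome 1 and 1 library per treatment limit all values.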

Other observations

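Within the Hjurp-high class, cells were split after the values were seen by whether they held a Sgol2a UMI after thinning to 300 UMIs: 112 of 444 vehicle cells and 122 of 447 GnRH-treated cells did. Thinned Hjurp was at nearly the same level in both groups, with log2 ratios of 0.07 (-0.09 to 0.23) with vehicle and 0.07 (-0.10 to 0.23) with GnRH. Cells with Sgol2a had less Mcm6, with ratios of -0.68 (-1.03 to -0.35) and -0.42 (-0.75 to -0.11), and less Mcm3, with -0.47 (-0.80 to -0.16) and -0.44 (-0.75 to -0.14). Nucks1 was higher in them, at 0.33 (0.18 to 0.48) and 0.21 (0.05 to 0.36), and Igfbp5 lower, at -0.45 (-0.65 to -0.25) and -0.33 (-0.54 to -0.12). Prim2 was at -0.95 (-1.59 to -0.35) in the vehicle library and 0.24 (-0.25 to 0.72) in the GnRH library. The replication genes Dtymk, at 0.10 and -0.10, and Orc2, at -0.34 and 0.18, did not keep one direction. Of the mitosis genes, Clasp1 was at 0.67 and -0.11 and Cspp1 at 0.32 and 0.19. Bard1 was at -0.12 and -0.07. Pms1 was at -2.01 and -2.10, on 2 UMIs in the cells with Sgol2a of each library. The genes given were picked from 76 named genes after their values were seen. All values here are descriptions of a split made on the same cells.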
